A study of Mus musculus with 8 samples.

Results

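The microRNA miR-223 is a myeloid microRNA whose hairpin can release a guide strand and a passenger strand. The expression of bone marrow cells without an intact guide strand was compared here with that of cells having one. All 8 arrays of the series entered the comparison, 4 read as guide-lacking and 4 as guide-intact. The guide-lacking arrays were those titled KO_MIG (2 arrays) and KO_223mut (2 arrays), both from mir-223-/- C57/BL6 mice. The guide-intact arrays were those titled WT_MIG (2 arrays, wild-type C57/BL6 mice) and KO_starmut (2 arrays, mir-223-/- C57/BL6 mice). This reading rests on the names alone: KO_223mut is taken to carry a vector with a changed guide strand and KO_starmut one with a changed passenger strand. The headers of the authors' deposited list mark that last group with an asterisk in the microRNA's name, and the labels spell out neither MIG nor the changes. Each title carries the replicate number 2 or 3. Whether the arrays came from separate mice or cultures is not stated, so p-values here cover only array-to-array spread, which may be technical.

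Every group, wild type included, consisted of total marrow cells that were stimulated for 2 days and then carried retroviral Hoxa9 and Meis1, a pair of leukaemia-associated transcription factors. In every group the virus producer cells had been irradiated with 4000 cGy. Marrow cells were sorted for YFP and kept in 1.4 mg/ml neomycin. The ages of the mice and the cell types left after selection are not given. Expression was read on Affymetrix Mouse Gene 1.0 ST arrays, which hold 28853 probe sets here. A value is the log2 signal of a probe set minus its median over the 8 arrays, called the centred log2 signal below. It shows how arrays differ but no level, so the marrow label could not be checked against marker levels.

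A microRNA guides the silencing complex to messenger RNAs that pair with its seed, bases 2 to 8 counted from the 5′ end, and lowers the output of those messages. The strand that is retained is called the guide, and the other, often degraded, is the passenger. In blood cells miR-223 is known for its high level in neutrophils and monocytes and for restraining their progenitors and their inflammatory responses. The mature strands are shown because the groups differ by which of them is intact. Both are RefSeq entries of build GRCm38.p6 on the plus strand of chromosome X, with the seed in capitals:
mmu-miR-223-3p (guide, chrX:96242884-96242905): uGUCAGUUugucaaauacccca
mmu-miR-223-5p (passenger, chrX:96242842-96242864): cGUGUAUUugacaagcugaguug
Mir223 hairpin (chrX:96242817-96242926, both strands in capitals): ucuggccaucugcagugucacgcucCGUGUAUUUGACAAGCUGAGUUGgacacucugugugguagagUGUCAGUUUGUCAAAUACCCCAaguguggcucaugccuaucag
The seeds match at 4 of 7 positions. Neither is shared with another of the 1738 mature mouse microRNAs in that table. A site that pairs with the guide seed reads AACUGAC and one for the passenger seed AAUACAC. Target sites in messages were not analysed here.

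The comparison of guide-lacking with guide-intact arrays can be split into a pair of differences that share no array: KO_MIG minus WT_MIG and KO_223mut minus KO_starmut. The first compares knockout with wild-type marrow, and the second compares vectors within knockout marrow. The question was which genes moved the same way in both. Among the 1081 probe sets with a single gene symbol, 29 passed for the mean of both differences and moved the same way. Of these, 19 were lower without an intact guide strand, including Ly6a, Ccr1, Itgam, Rgs1 and Mmp12. Another 10, including Nav1, Rassf8 and Cd27, were higher. Over all 28853 probe sets 187 did so, 38 higher and 149 lower. The symbols come from the authors' deposited list, which was chosen on these same arrays. In the fit of all 8 arrays none of the 29 passed for KO_223mut minus KO_starmut alone.

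The mean of both differences was fitted in limma with the 4 groups as terms and the replicate number as a block. In that fit 249 of 28853 probe sets (0.863%) passed a Benjamini-Hochberg adjusted p of 0.05, of which 73 were higher (0.253%) and 176 lower (0.61%) in guide-lacking arrays, with 3186 at an unadjusted p under 0.05. The count rested on the block and on the group terms. Without the block 6 passed, and with guide strand as the only term beside the block, so that differences between groups of equal guide status count as noise, none passed (2084 at an unadjusted p under 0.05, limma). Leaving out either KO_starmut array gave 4 calls, all among the 249. Leaving out WT_MIG replicate 3 gave 43 calls (30 of them among the 249), leaving out KO_MIG replicate 2 gave 46 (39 among the 249) and leaving out KO_MIG replicate 3 gave 45 (43 among the 249). The count was 104 without KO_223mut replicate 2, 130 without KO_223mut replicate 3 and 167 without WT_MIG replicate 2. 

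**Figure D1:**
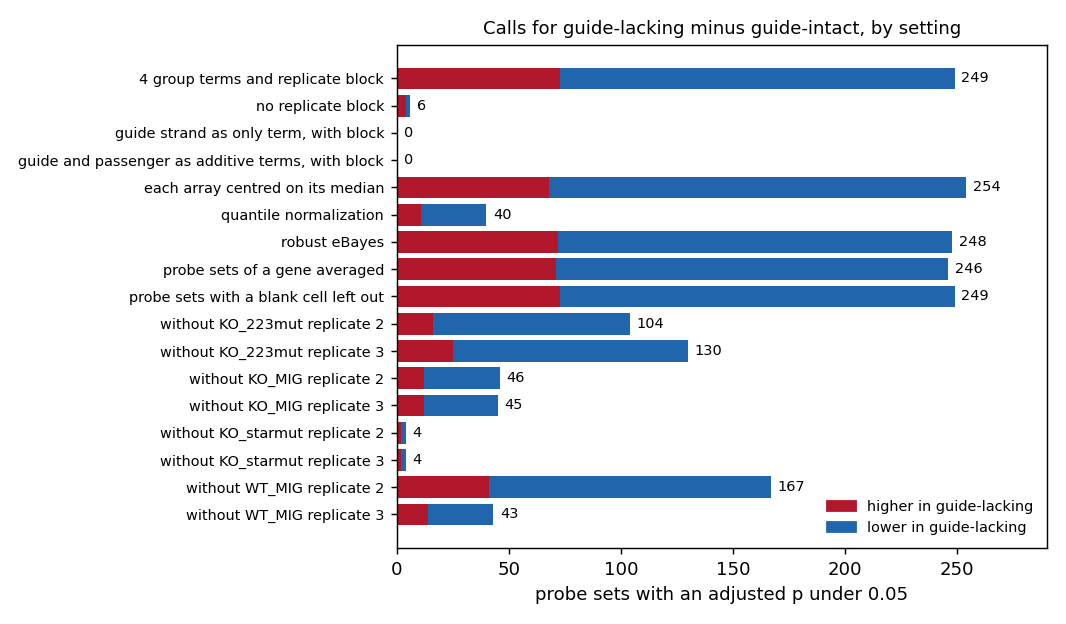
Number of probe sets with a limma adjusted p under 0.05 for guide-lacking minus guide-intact, by setting, split into those higher and lower in guide-lacking arrays. The count is 249 with 4 group terms and the replicate block, 6 without the block and 0 when groups of equal guide status are merged.

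Of the 249, 226 had the same sign in both differences, and 187 of these also had an unadjusted p under 0.05 in each (38 higher and 149 lower). Over all probe sets, whether called or not, 435 (1.51%) had the same sign and an unadjusted p under 0.05 in both differences, 173 higher (0.6%) and 262 lower (0.908%) in guide-lacking arrays. Opposite signs with the same p limit were found for 192 probe sets (0.665%). With no p limit, 15013 probe sets (52.0%) had the same sign, and 5180 (18%) had it in all 4 differences between single arrays of 1 replicate number. When a difference of at least 0.3 on the log2 scale without overlap of arrays was asked of both, 134 probe sets ran the same way (17 higher and 117 lower) and 21 ran opposite ways.

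Many of these probe sets had nearly the same values on every array, and whether they read the same transcript was not tested. Among the 249, 50 unnamed ones, all lower in guide-lacking arrays, agreed within 0.1 on the log2 scale on every array. Their median centred log2 signal was -0.07 and 0.14 in KO_MIG and -0.37 and -0.43 in KO_223mut, against 0.55 and 0.77 in WT_MIG and -0.13 and 0.07 in KO_starmut. Counting such near-identical probe sets once left 184 profiles of the 249 and 298 of the 435. Among the 134, the largest near-identical set also had 50 probe sets, and 84 profiles were left.

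Neither difference alone gave the same picture. Between KO_MIG and WT_MIG 277 probe sets passed (0.96%), against 39 without the block and 149 with only the 4 arrays of these groups. Of the 277, 199 had the same sign between KO_223mut and KO_starmut and 78 the opposite. The median absolute difference of these 277 was 0.62 on the log2 scale in KO_MIG minus WT_MIG and 0.18 in KO_223mut minus KO_starmut. In KO_223mut minus KO_starmut only the unnamed probe set 10458589 passed (0.00347%). Its difference was -1.12 ± 0.08 there (limma adjusted p = 0.0457) and 0.10 in KO_MIG minus WT_MIG. At an unadjusted p under 0.05 the number was 2809. When only the 4 arrays of KO_223mut and KO_starmut were fitted, with the block, 90 passed (15 higher and 75 lower). In the fit of all 8 arrays none of the 29 same-direction genes below passed for KO_223mut minus KO_starmut alone. They are called on the mean of both differences, with the vector comparison contributing unadjusted p-values.

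Gene names came from the authors' deposited list, which was itself chosen on these arrays by a test over the 4 groups. Of its 1081 probe sets with a single symbol, 55 (5.09%) passed for guide-lacking minus guide-intact, 24 higher (2.22%) and 31 lower (2.87%). Of these, 29 moved the same way with an unadjusted p under 0.05 in both differences, 19 lower and 10 higher. Called or not, 66 single-symbol probe sets (6.11%) did so. In all 29 the sign was the same in each of the 4 single-array differences, against 30.4% of single-symbol probe sets. The 4 guide-lacking arrays did not overlap the 4 guide-intact arrays in 12 of the 29, against 8.51% of single-symbol probe sets and 2.64% of all probe sets (1.91% higher and 0.731% lower). The calls and these counts come from the same arrays and are not separate evidence. The median absolute difference of the 29 was 0.46 in KO_MIG minus WT_MIG and 0.30 in KO_223mut minus KO_starmut.

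**Figure D2:**
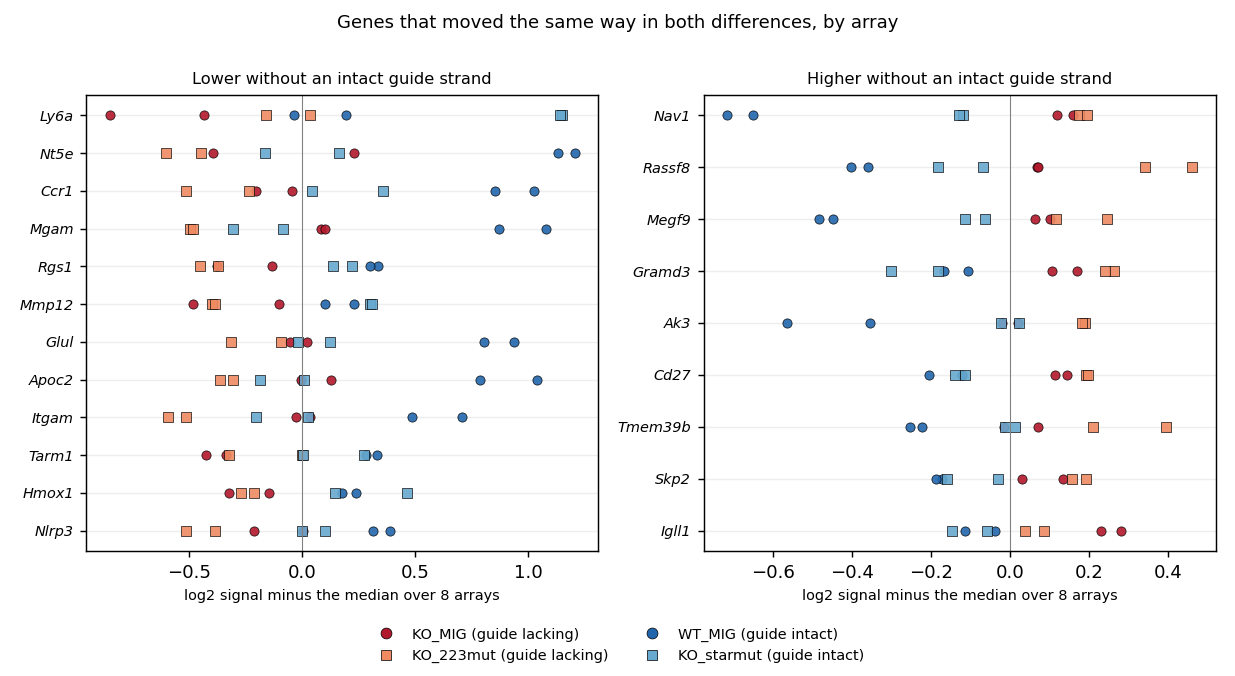
Centred log2 signal of each array (x axis) for the 12 largest decreases and, apart from Tmem47, the named increases among called genes that moved the same way in both differences. Red and orange points are guide-lacking arrays (KO_MIG, KO_223mut) and blue points guide-intact arrays (WT_MIG, KO_starmut); in Ccr1, Rgs1, Mmp12, Tarm1 and Hmox1 all red and orange points lie left of all blue ones.

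Among the 19 lower genes the largest decrease was in Ly6a, the stem cell surface antigen Sca-1. It read -0.85 and -0.43 in KO_MIG and 0.04 and -0.16 in KO_223mut, against -0.04 and 0.19 in WT_MIG and 1.15 and 1.14 in KO_starmut. The KO_starmut arrays stood above all others, and 1 KO_223mut array lay above a WT_MIG array. Ly6a was 1.95-fold lower in guide-lacking arrays (log2 difference -0.96 ± 0.09, moderated SE, limma adjusted p = 0.0148), with -0.72 in KO_MIG minus WT_MIG and -1.21 in KO_223mut minus KO_starmut.

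Ccr1, a receptor for inflammatory chemokines on monocytes and neutrophils, read -0.20 and -0.04 in KO_MIG and -0.24 and -0.52 in KO_223mut, against 1.02 and 0.85 in WT_MIG and 0.36 and 0.04 in KO_starmut. All guide-lacking arrays lay below all guide-intact arrays, and wild type was highest. The difference was -0.82 ± 0.08 (1.76-fold lower, limma adjusted p = 0.0148), with -1.06 in the first difference and -0.58 in the second.

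Itgam is the alpha chain of the integrin Mac-1 and a marker of mature myeloid cells. Its values were -0.03 and 0.03 in KO_MIG and -0.51 and -0.59 in KO_223mut, against 0.71 and 0.48 in WT_MIG and 0.03 and -0.20 in KO_starmut. Each guide-lacking group lay below its own partner, but KO_MIG overlapped KO_starmut. The difference was -0.53 ± 0.06 (limma adjusted p = 0.0148), of similar size in both parts (-0.59 and -0.47). In bulk RNA, fewer cells of a type and less RNA per cell cannot be told apart, which holds for every myeloid marker named here.

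Tarm1, an activating receptor of myeloid cells, was lower with a difference of -0.50 ± 0.07 (adjusted p = 0.0323), and the C-type lectin receptor Clec4d with -0.37 ± 0.05 (adjusted p = 0.0266). In Clec4d the KO_MIG arrays (-0.06 and 0.06) overlapped the KO_starmut arrays (0.02 and -0.02). Nt5e (CD73), the ectoenzyme that makes adenosine from AMP, read 0.23 and -0.40 in KO_MIG and -0.60 and -0.45 in KO_223mut, against 1.21 and 1.13 in WT_MIG and 0.16 and -0.16 in KO_starmut. Wild type was set apart there, and KO_MIG overlapped KO_starmut. Its difference was -0.89 ± 0.11 (limma adjusted p = 0.0194), with -1.25 and -0.52 in the first and second part.

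Decreases were also found in signalling and enzyme genes. Rgs1, which dampens signals of G protein-coupled receptors, was at -0.13 and -0.38 in KO_MIG and -0.45 and -0.37 in KO_223mut, against 0.33 and 0.30 in WT_MIG and 0.13 and 0.22 in KO_starmut. The groups did not overlap, and the parts were nearly equal at -0.57 and -0.59. Its mean difference was -0.58 ± 0.06 (limma adjusted p = 0.0148).

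Mmp12, the elastase secreted by macrophages, read -0.48 and -0.10 in KO_MIG and -0.40 and -0.39 in KO_223mut, against 0.23 and 0.10 in WT_MIG and 0.30 and 0.31 in KO_starmut. Here too guide-lacking and guide-intact arrays did not overlap. The difference was -0.58 ± 0.08 (adjusted p = 0.0264). Hmox1, the haem-degrading enzyme, was at -0.15 and -0.32 in KO_MIG and -0.27 and -0.22 in KO_223mut, against 0.17 and 0.24 in WT_MIG and 0.46 and 0.15 in KO_starmut. It likewise showed no overlap, with a difference of -0.49 ± 0.07 (adjusted p = 0.0300).

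Nlrp3, the sensor of an inflammasome and a reported target of miR-223, was also lower in guide-lacking arrays. Its values were 0.00 and -0.21 in KO_MIG and -0.52 and -0.39 in KO_223mut, against 0.39 and 0.32 in WT_MIG and 0.10 and 0.00 in KO_starmut. Each guide-lacking group was below its partner, by -0.46 in KO_MIG minus WT_MIG and -0.50 in KO_223mut minus KO_starmut. KO_MIG and KO_starmut just overlapped, with KO_MIG replicate 2 at 0.0022 and KO_starmut replicate 3 at -0.0022. The mean difference was -0.48 ± 0.06 (1.39-fold lower, limma adjusted p = 0.0173).

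For the metabolic genes the wild-type arrays carried most of the difference. Mgam, a starch-digesting disaccharidase, differed by -0.59 ± 0.06 over both parts, with -0.88 in KO_MIG minus WT_MIG and -0.29 in KO_223mut minus KO_starmut. Glul, glutamine synthetase, gave -0.57 ± 0.07 with -0.89 and -0.26 in the same order, and Apoc2, the cofactor of lipoprotein lipase, -0.55 ± 0.07 with -0.85 and -0.24. Their limma adjusted p-values lay between 0.0148 and 0.0194. The test of the difference between the parts did not pass for these genes (adjusted p = 0.182 for Mgam, 0.246 for Glul and 0.283 for Apoc2). In Mgam both KO_MIG arrays (0.09 and 0.10) lay above both KO_starmut arrays (-0.09 and -0.30). In Glul and Apoc2 the KO_MIG arrays overlapped the KO_starmut arrays.

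The lysosomal glycoprotein Cd68, a macrophage marker, was lower with a difference of -0.26 ± 0.04 (limma adjusted p = 0.0422). Its KO_MIG arrays (-0.07 and 0.02) overlapped its KO_starmut arrays (-0.02 and 0.05). Another 5 genes completed the 19, and are named here after their values were seen. They were Tnfrsf8 (CD30, -0.42), the glycosyltransferase B3gnt8 (-0.40), the myosin light chain Myl10 (-0.34), Thbs1 (thrombospondin 1, -0.31) and Fam129b (now Niban2, -0.28).

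The increases were smaller, apart from Tmem47, a membrane protein of cell junctions. Tmem47 read 0.31 and -0.05 in KO_MIG and 0.34 and 0.14 in KO_223mut, against -3.05 and -2.99 in WT_MIG and 0.02 and -0.02 in KO_starmut. Nearly all of its difference of 1.69 ± 0.07 (limma adjusted p = 0.000545) came from wild type, with 3.14 in KO_MIG minus WT_MIG and 0.24 in KO_223mut minus KO_starmut. It was the sole gene among the 29 whose parts themselves differed (adjusted p = 0.00162).

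Nav1, a cytoskeletal protein of the neuron navigator family, was at 0.16 and 0.12 in KO_MIG and 0.18 and 0.20 in KO_223mut, against -0.65 and -0.72 in WT_MIG and -0.12 and -0.13 in KO_starmut. All guide-lacking arrays lay above all guide-intact ones. The difference was 0.57 ± 0.04 (1.48-fold higher, limma adjusted p = 0.00589), and Nav1 and Tmem47 were the 2 of the 29 that also passed without the replicate block.

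Rassf8, a protein with a Ras-association domain, had values of 0.07 and 0.07 in KO_MIG and 0.34 and 0.46 in KO_223mut, against -0.36 and -0.40 in WT_MIG and -0.07 and -0.18 in KO_starmut. It showed no overlap and a difference of 0.49 ± 0.05 (limma adjusted p = 0.0148), split as 0.45 and 0.53. Megf9, a membrane protein with EGF-like repeats, also did not overlap and differed by 0.41 ± 0.04, and Gramd3, a GRAM domain protein, by 0.38 ± 0.05 without overlap (adjusted p = 0.0148 for both).

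Cd27, a receptor of the TNF family found on lymphocytes and on some progenitors, was at 0.14 and 0.11 in KO_MIG and 0.19 and 0.20 in KO_223mut, against -0.12 and -0.21 in WT_MIG and -0.14 and -0.11 in KO_starmut. Again the groups were apart. The difference was 0.31 ± 0.04 (1.24-fold higher, limma adjusted p = 0.0218), with nearly equal parts of 0.29 and 0.32. Skp2, the substrate-recognition subunit of a ubiquitin ligase that marks a cell cycle inhibitor for degradation, was higher by 0.27 ± 0.04 without overlap (adjusted p = 0.0481). Igll1, a surrogate light chain of B cell precursors, was higher by 0.25 ± 0.04 without overlap (adjusted p = 0.0377). The mitochondrial adenylate kinase Ak3 (0.32) and Tmem39b (0.28) completed the 10, and their arrays overlapped.

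**Figure D3:**
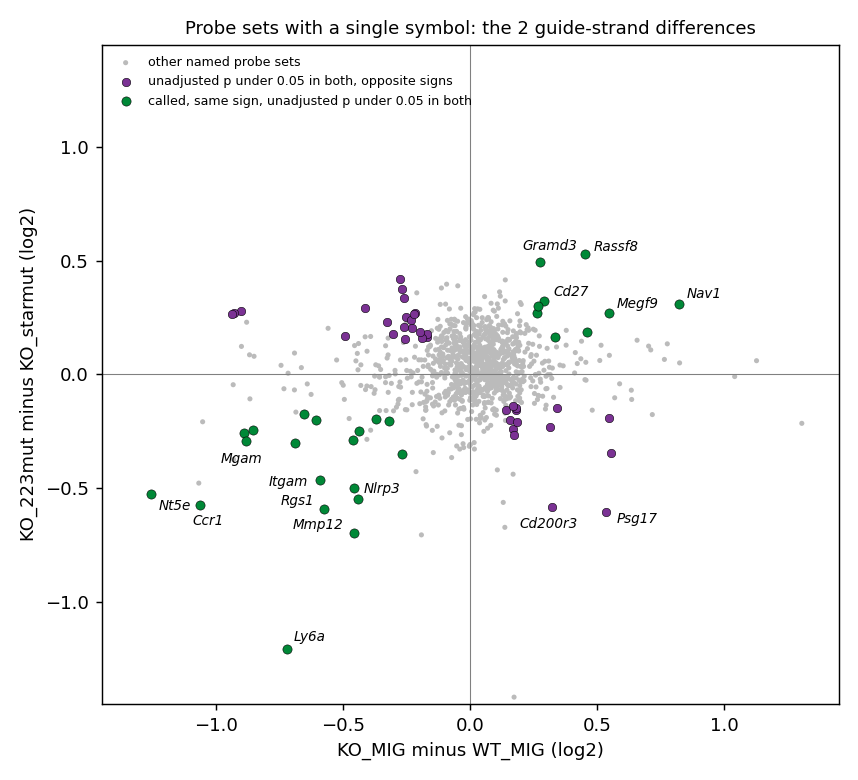
Each point is a probe set with a single symbol, with KO_MIG minus WT_MIG on the x axis and KO_223mut minus KO_starmut on the y axis, both as log2 differences; 1077 of 1081 are plotted and BC018473, Tmem47, Chi3l1 and 1700112E06Rik lie beyond the x axis. Called genes of the same sign (green) reach -1.21 on the y axis in Ly6a, while 35 probe sets with an unadjusted p under 0.05 in both and opposite signs (purple) include Psg17 and Cd200r3.

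A further 37 single-symbol probe sets had the same sign and an unadjusted p under 0.05 in both differences without passing for their mean, 9 lower and 28 higher, with mean differences between -0.35 and 0.29. The lipid droplet protein Plin2 gave -0.35 ± 0.09 (limma adjusted p = 0.190). Apobec3, a cytidine deaminase that restricts retroviruses, gave 0.25 ± 0.05 (adjusted p = 0.0729). Dock10, a guanine nucleotide exchange factor, gave 0.22 ± 0.04 (adjusted p = 0.0768) and Fmn1, a formin, 0.22 ± 0.04 (adjusted p = 0.0905), both with guide-lacking arrays above all guide-intact ones. The lymphocyte receptor Cd96 gave 0.22 ± 0.05 (adjusted p = 0.188).

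Opposite movement was also seen among named genes. Of 35 such probe sets, Psg17, a pregnancy-specific glycoprotein, had 0.54 in KO_MIG minus WT_MIG and -0.60 in KO_223mut minus KO_starmut. The mast cell and basophil gene Cd200r3 had 0.32 and -0.58 in the same order. It read -0.02 and 0.02 in KO_MIG and 0.10 and -0.06 in KO_223mut, against -0.43 and -0.22 in WT_MIG and 0.57 and 0.64 in KO_starmut, so that the guide-intact groups lay on either side of the guide-lacking ones. Psg17 was named after its values were seen.

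Passing for guide-lacking minus guide-intact did not require both parts. Of the 55 called single-symbol probe sets, 26 did not move the same way with a p under 0.05 in both parts, and in 10 of these the signs were opposite. Chi3l1 (now Chil1), a chitinase-like secreted protein, read -0.06 and 0.13 in KO_MIG and 0.09 and 0.14 in KO_223mut, against -1.98 and -2.14 in WT_MIG and -0.07 and 0.06 in KO_starmut. The KO_starmut arrays lay among the other knockout arrays, and the difference of 1.11 ± 0.06 (limma adjusted p = 0.00290) was made up of 2.10 in KO_MIG minus WT_MIG and 0.12 in KO_223mut minus KO_starmut.

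BC018473, an uncharacterised transcript, followed the same pattern in the other direction, with values between -0.13 and 0.10 in the 6 knockout arrays, against 5.31 and 5.34 in WT_MIG. The probe set of Mir223 itself, which also carries the symbol F630028O10Rik, read -0.01 and 0.14 in KO_MIG and 0.01 and 0.04 in KO_223mut, against -0.98 and -1.07 in WT_MIG and -0.08 and 0.15 in KO_starmut. It was higher in guide-lacking arrays by 0.54 ± 0.06 (limma adjusted p = 0.0148), with 1.09 in KO_MIG minus WT_MIG and -0.01 in KO_223mut minus KO_starmut. The stretch its probes cover is not given here. The probe set therefore neither checks the genotype labels nor reads the strand from the vectors.

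**Figure D4:**
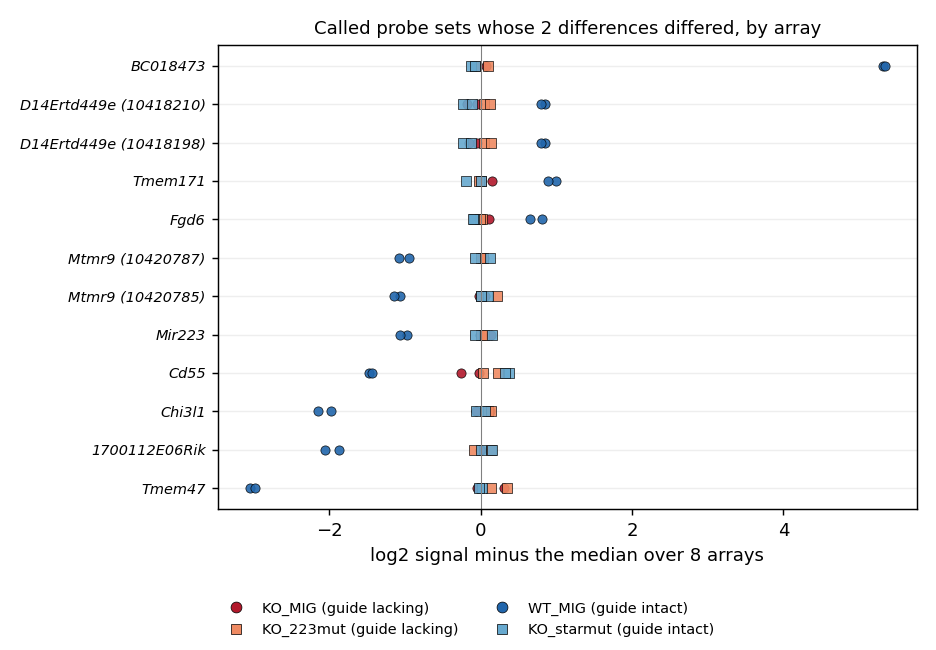
Centred log2 signal of each array (x axis) for the 11 called single-symbol probe sets taken by the naming rule for unequal differences, and for the probe set of Mir223. The 2 WT_MIG arrays stand apart in each row, from -3.05 in Tmem47 to 5.34 in BC018473, while the 6 knockout arrays stay between -0.26 and 0.37.

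Over all probe sets the difference between the parts passed for 32 (0.111%), 22 of them among the 249. Without the block 8 passed, with quantile normalization 9, and without 1 array 1 to 12. For these groups that difference is arithmetically the contrast of passenger-lacking with passenger-intact arrays, since WT_MIG and KO_223mut are read as carrying the passenger strand. Unequal effects of the guide and an effect of the passenger strand therefore cannot be told apart here. In the first difference, loss of both strands and the genotype are joined as well.

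Gene lists were read on the names in the authors' deposited list, which holds 38 of their 258 genes. Of the monocyte and macrophage list, 4 of 17 genes were named (Ccr1, Cd68, Itgam and Mmp12). All 4 were called lower in guide-lacking arrays, against 2.87% of single-symbol probe sets and 0.61% of all probe sets called lower. Their median difference was -0.55, against 0.04 over the 1081 single-symbol probe sets and 0.01 over all 28853. The other members of that list are not named, so the count does not describe the list as a whole. The gene lists were chosen with earlier results of these data known, and the names were chosen on these same arrays. Counts of called list members, here and below, are therefore not separate evidence.

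Of the neutrophil list 3 of 21 genes were named, with Mgam lower, Chi3l1 higher, and the surface peptidase Anpep at -0.45 ± 0.16 (limma adjusted p = 0.375). In the list of innate sensors and inflammation, 2 of 6 named genes were called, Nlrp3 and Clec4d, both lower, against 2.87% of single-symbol probe sets and 0.61% of all probe sets called lower, with a median of -0.22 over the 6. Tlr7, a sensor of single-stranded RNA, gave opposite signs (-0.88 in KO_MIG minus WT_MIG and 0.23 in KO_223mut minus KO_starmut). The cytokine Tnf gave -0.12, the peptidoglycan sensor Nod1 -0.11 and the interleukin 1 receptor Il1r1 0.23, none of them called.

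Reported miR-223 targets were represented by 5 of 31 genes. Nlrp3 was called lower and 0 were called higher, against 2.87% and 2.22% of single-symbol probe sets called lower and higher. Over all probe sets these shares were 0.61% and 0.253%. The median over the 5 was 0.03, close to that of all single-symbol probe sets. A silenced message would rise when its guide is lost, so Nlrp3 moved the opposite way, and the reason was not tested. Igf1r, a growth factor receptor, read 0.16 and 0.15 in KO_MIG and -0.17 and 0.12 in KO_223mut, against -0.43 and -0.17 in WT_MIG and 0.01 and -0.01 in KO_starmut. It was higher in KO_MIG than in WT_MIG by 0.46 ± 0.09 (limma adjusted p = 0.105), while KO_223mut minus KO_starmut was -0.03 ± 0.09. The mean difference of 0.22 ± 0.07 did not pass (adjusted p = 0.289).

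Lmo2, a transcriptional cofactor of blood progenitors, gave 0.25 ± 0.06 (limma adjusted p = 0.138), with 0.41 in the first part and 0.10 in the second. The GTPase activator Rasa1 and the transcription factor Sp3 gave 0.03 each. The ribosomal S6 kinase Rps6kb1, the other named gene of the IGF and PI3K list beside Igf1r, gave 0.01.

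In the stem and progenitor list, Ly6a was called lower, while Lmo2, Hoxa10 (0.13) and the cytokine receptor Flt3 (-0.05) were not called. In the B-lineage list Igll1 was called higher. Among all single-symbol probe sets, 2.87% were called lower and 2.22% higher. No named member of the lists for mast cells and basophils, eosinophils, T and NK cells, dendritic cells, fibroblasts, interferon response, lysosome, immediate early genes and sex-linked genes was called. Their differences lay between -0.32 for Fos and 0.25 for Apobec3, with 0.10 for the fibroblast genes Dcn and Mmp2 and -0.15 for the Y-linked Eif2s3y. The parts of Mmp2 had opposite signs, -0.12 in KO_MIG minus WT_MIG and 0.31 in KO_223mut minus KO_starmut. Fos, Eif2s3y, Hoxa10 and the lysosomal protease Ctsz were uncalled genes whose guide-lacking and guide-intact arrays did not overlap. Called or not, 8.51% of single-symbol probe sets and 2.64% of all probe sets did not overlap either. The erythroid and megakaryocyte list and the proliferation list had no named gene.

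**Figure D5:**
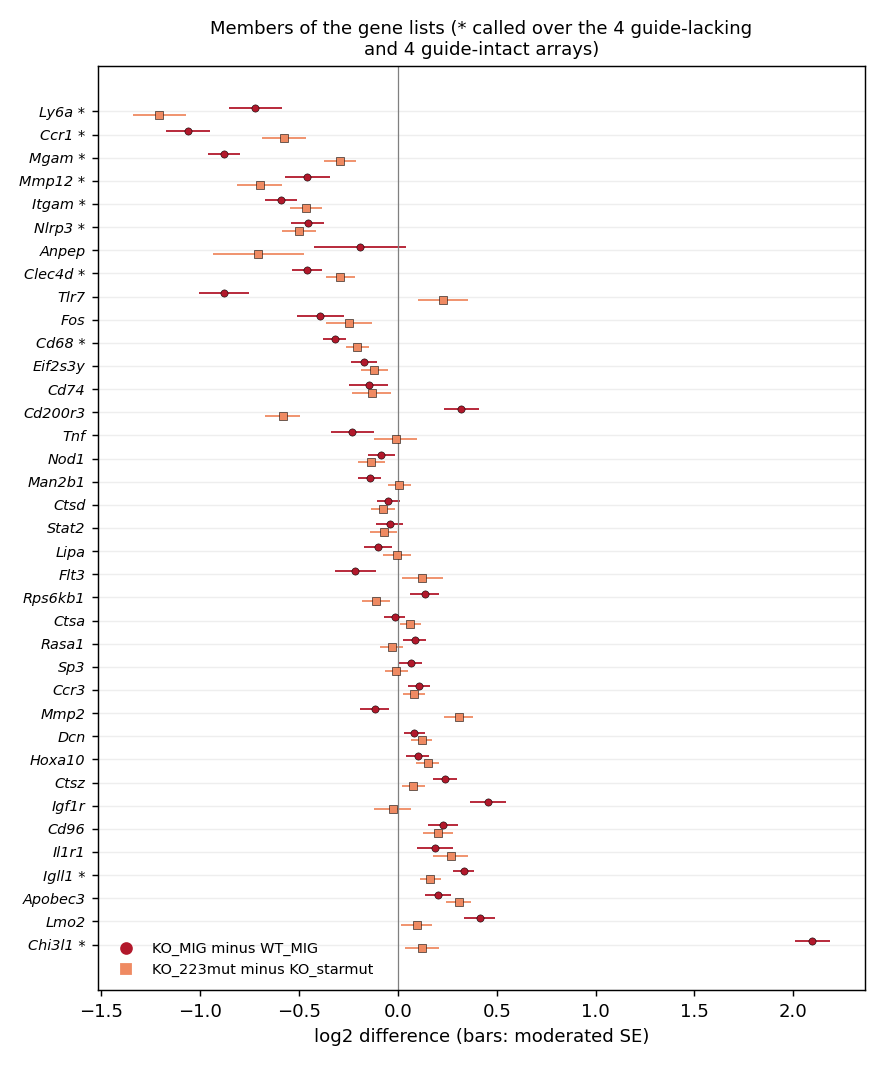
Log2 differences with moderated SE for the named members of the gene lists that are reported here, KO_MIG minus WT_MIG (red circles) and KO_223mut minus KO_starmut (orange squares), ordered by their mean. Ly6a, Ccr1, Mmp12, Itgam, Nlrp3, Clec4d and Cd68 lie left of 0 in both, and Tlr7 and Cd200r3 have opposite signs.

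Most of the same-direction calls have no name here. Of the 187, 157 are outside the authors' deposited list or carry no symbol in it, 129 lower and 28 higher. The largest decrease among them, in probe set 10459772, was -1.16 ± 0.10 (limma adjusted p = 0.0112), with -1.05 and -1.28 in the first and second part. In probe set 10560481 the difference was -1.14 ± 0.15 (limma adjusted p = 0.0193), with -0.79 and -1.49 in the same order. Its KO_MIG arrays (0.02 and -1.23) were far apart and overlapped its WT_MIG arrays (0.39 and -0.02). The largest increases were 0.92 ± 0.08 in probe set 10575693 (limma adjusted p = 0.0116) and 0.62 ± 0.06 in probe set 10473367 (adjusted p = 0.0148). The first and second part were 1.48 and 0.35 in probe set 10575693, where WT_MIG was set apart at -1.22 and -1.74. They were 0.74 and 0.50 in probe set 10473367. In both probe sets the KO_MIG arrays overlapped the KO_starmut arrays.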

How the data were processed

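Per the file headers, the authors deposited log2 signals made with RMA16 and array annotation na31 (mm9). Every probe set is centred on its own median (row medians lie within 7.02e-07 of 0). Their accompanying list of 1264 probe sets was kept, per the file headers, by raw signal (percentiles 20 to 100) and by an uncorrected Welch-type p-value under 0.05 over the 4 groups. The authors deposited there a fold change of group means as a ratio, larger over smaller. The authors also deposited it as a signed score, and neither was used. The list gives a single symbol for 1081 probe sets (1049 symbols), several for 138 and none for 45.

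The limma package (3.58.1, R 4.3.3) was run on the log2 values of all probe sets, with 4 groups and the replicate number as terms (3 residual and 4.23 prior degrees of freedom). Tests were two-sided, with Benjamini-Hochberg adjustment over 28853 probe sets. The 9 blank cells, all in KO_starmut replicate 3, were left missing. Array medians lay between -0.0126 and 0.0109, and replicates differed with an SD of 0.166 to 0.185. With 2 arrays a group, precision is low.

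No label states that a replicate number links arrays. Same-numbered arrays deviated together from their group means (correlations of 0.360 to 0.533), and the block is part of the comparison's definition. Named were, per direction, up to 12 called genes of the same sign with an unadjusted p under 0.05 in both differences, ranked by mean difference, and up to 12 called or not, ranked by the smaller difference. Up to 6 called genes per direction with unequal differences, list members, Mir223 and Igf1r were added. The comparison, members, lists and rule were chosen with earlier results of these data known. Current symbols and sequences came from RefSeq tables of GRCm38.p6. Of the named list members, 1 is not reported here. The fit was tested on simulated data. Alternatives were the block, other terms, only the 4 arrays of a pair, centring, quantile normalization, robust eBayes, averaging by gene, dropping blanks, stricter limits and leaving out each array.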

Additional observations from a re-analysis of the deposited data

Results flagged for a closer look

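The 2 differences themselves differed (limma, adjusted p under 0.05) for 12 probe sets of those named. With (KO_MIG minus WT_MIG) minus (KO_223mut minus KO_starmut) on the log2 scale, the values were 2.90 for Tmem47, 2.03 for 1700112E06Rik (now Lrmda), 1.97 for Chi3l1, 1.52 for Cd55, 1.07 and 1.05 for the probe sets of Mtmr9, and 1.10 for the probe set of Mir223. They were -5.44 for BC018473, -1.20 for both probe sets of D14Ertd449e, -0.95 for Tmem171 and -0.78 for Fgd6. In each, the WT_MIG arrays lay apart from the 6 knockout arrays.

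A single array lay far from the other 3 of equal guide status in 4 of 132 sets of 4 arrays checked; chance flags about 1 in 20. Igf1r read -0.17 in KO_223mut replicate 2, against 0.12 to 0.16 in the other guide-lacking arrays. Lmo2 read -0.018 in KO_223mut replicate 2, against 0.20 to 0.22. Hoxa10 read 0.0076 in KO_MIG replicate 3, against 0.10 to 0.11. Tmem171 read 0.15 in KO_MIG replicate 2, against -0.02 to 0.00.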

How the results depend on the processing

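Without the replicate block, the 249 calls for guide-lacking minus guide-intact became 6, the 277 for KO_MIG minus WT_MIG 39, the single one for KO_223mut minus KO_starmut 0 (1358 at an unadjusted p under 0.05, limma), the 32 for the difference between them 8, and the 435 same-direction probe sets 191. All 6 were among the 249. With guide strand as the only term, or with guide and passenger as additive terms, 0 passed (2084 and 2104 at an unadjusted p under 0.05). Quantile normalization gave 40 for guide-lacking minus guide-intact, 64 for KO_MIG minus WT_MIG (37 higher and 27 lower, against 105 and 172), 0 for KO_223mut minus KO_starmut (2640 unadjusted) and 9 for the difference between them (7 higher and 2 lower, against 20 and 12). With only the 4 arrays of a pair, 149 and 90 passed for the first and second difference. An unadjusted p under 0.01 in both gave 158 same-direction probe sets (43 opposite), and a difference of 0.3 without overlap gave 134. The causes were not tested.

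Leaving out 1 array gave 4 to 167 calls for guide-lacking minus guide-intact, 45 to 203 for KO_MIG minus WT_MIG, 0 to 7 for KO_223mut minus KO_starmut, 1 to 12 for the difference between them, and 287 to 460 same-direction probe sets. For KO_MIG minus WT_MIG, 203 passed without a KO_223mut array (187 of them among the 277), and 45 to 86 without any other (41 to 84 among the 277). The lone array of a group is then assumed to vary like the others. Centring each array, robust eBayes, averaging by gene and dropping blanks left these counts within 1.5 times. Of the 29 called same-direction genes, all kept the same sign in both differences in every setting that gave both, and between 1 and 14 stayed called without 1 array, Tmem47 alone when a KO_starmut array was left out. With quantile normalization 4 stayed called (Ccr1, Gramd3, Nav1 and Tmem47).

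Signs turned for uncalled values near 0. Without 1 array, 1700112E06Rik in KO_223mut minus KO_starmut ranged from -0.18 to 0.051, and the probe sets of Mtmr9 there from -0.0049 to 0.12 and from -0.072 to 0.052 (0.025 with them averaged). Over both differences, Flt3 ranged from -0.12 to 0.030 (0.0099 with quantile normalization) and Rps6kb1 from -0.031 to 0.057 (-0.014 with quantile normalization).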
